A study of Danio rerio with 6 samples.

Results

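The circadian clock reaches other genes through a small set of transcription factors, and 10 genes that encode such factors were followed here in endocardial cells, the inner lining of the heart, of fish with or without a mutation of myd88. MyD88 is the adaptor through which most Toll-like and interleukin-1 receptors signal. The set held the 3 nuclear receptor genes nr1d1, nr1d2a and nr1d2b, the 2 basic helix-loop-helix (bHLH) repressor genes bhlhe40 and bhlhe41, and the 5 PAR-bZIP genes tefa, tefb, hlfa, dbpa and dbpb. Each was taken by its gene symbol, and all 10 were among the 17835 genes listed. The set had been chosen after the difference between the genotypes had been seen, so the fold changes of these genes describe the libraries. Whether each gene passed the criteria given below is likewise a description and not independent evidence. Adult zebrafish (AB strain, 3 to 12 months of age in the study) carried the enhancer trap ET(krt4:EGFP)sqet33-1A, which marks the endocardium with EGFP, and were myd88+/+ or homozygous for the allele myd88hu3568 (myd88-/-), which all cells of the animal carry. Every ventricle had been cryoinjured, in both genotypes, and EGFP+ cells were sorted 96 hours post cryoinjury (hpci). Each of the 3 libraries per genotype was a pool of 4 ventricles. Uninjured ventricles were not analysed here, so both groups describe injured hearts. The fish were kept under a daily cycle of light and dark, and the time of day at which each pool was collected is not given in the sources used here. For genes of the clock, a difference between the genotypes and a difference in collection time therefore cannot be told apart.

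The vertebrate clock is a feedback loop. The activators Clock or Npas2 pair with Bmal1 (genes arntl1a and arntl1b in zebrafish). The pairs bind E-box sequences and switch on per and cry genes, whose proteins then block the activators. The 10 genes form the arms around this loop. REV-ERB receptors, encoded by nr1d genes, bind heme and recruit corepressors to elements that they share with the activating ROR receptors, and in mammals they repress Bmal1, Npas2 and Nfil3. The proteins of bhlhe40 and bhlhe41, known as DEC1 and DEC2, compete at E-boxes and repress. PAR-bZIP factors bind D-box sequences and activate, so the name repressor does not cover them. D-boxes also carry light responses in zebrafish, where the clocks of peripheral tissues, the heart included, are directly sensitive to light.

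The values are normalized read counts, rounded to whole numbers, which summed to between 11136966 and 11847536 per library. Genes were compared with limma on log2(value + 1) over the 16383 genes with a mean value above 5, and "past the criteria" means a Benjamini-Hochberg adjusted p under 0.05 together with a change of more than 1.5-fold. As a check of the labels, myd88 itself had values of 1305, 1149 and 1070 in the myd88+/+ pools, against 817, 575 and 849 in the myd88-/- pools. The genotypes did not overlap, which was so in this direction for 8.98% of all genes tested, and myd88 was not past the criteria. Endocardial and endothelial markers were present in every library: the 12 markers summed to between 43154 and 45774 in myd88+/+ and between 38466 and 47857 in myd88-/- libraries. Single markers went both ways. With no overlap, 1 was lower (notch1b) and 3 were higher (tie1, erg and nfatc1) in myd88-/- libraries, beside 8.98% and 9.09% of all genes tested. cdh5, planned as a second check, had 4525, 7333 and 8973 in the myd88+/+ pools, against 3632, 4874 and 4553 in the myd88-/- pools. These overlapped, and its log2 fold change was -0.63 ± 0.24 (SE). None of the 12 was past the criteria. Markers of other cells were present too. The 7 cardiomyocyte markers listed summed to between 16766 and 24061 over the 6 libraries, and the 8 macrophage markers to between 1589 and 3641 in myd88+/+ and between 896 and 2123 in myd88-/- libraries. The 8 epicardial and fibroblast markers summed to between 7718 and 17848 in myd88+/+ and between 6027 and 9338 in myd88-/- libraries. The 6 erythrocyte entries summed to between 25 and 462 in myd88+/+ and between 244 and 647 in myd88-/- libraries. In bulk RNA, fewer cells of one type and less RNA per cell cannot be told apart.

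Of the 10 genes, 5 were past the criteria, and all 5 were lower in myd88-/- cells: nr1d1, nr1d2a, bhlhe41, tefa and dbpb. Over all genes tested, 0.562% were past the criteria in this direction and 0.14% in the other, 0.702% in all. Each of the 3 families held at least 1 such gene. Over all 10 genes the median difference on the log2 scale was -1.10, beside 0.01 over all genes tested, and 9 of the 10 lay below 0. In 8 of the 10 every myd88-/- library was below every myd88+/+ library, which was so for 8.98% of all genes tested, with 9.09% apart in the other direction and 18.1% in either. The exceptions were nr1d2b and hlfa. Since the set was chosen on this contrast, these shares are a description only.

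**Figure D1:**
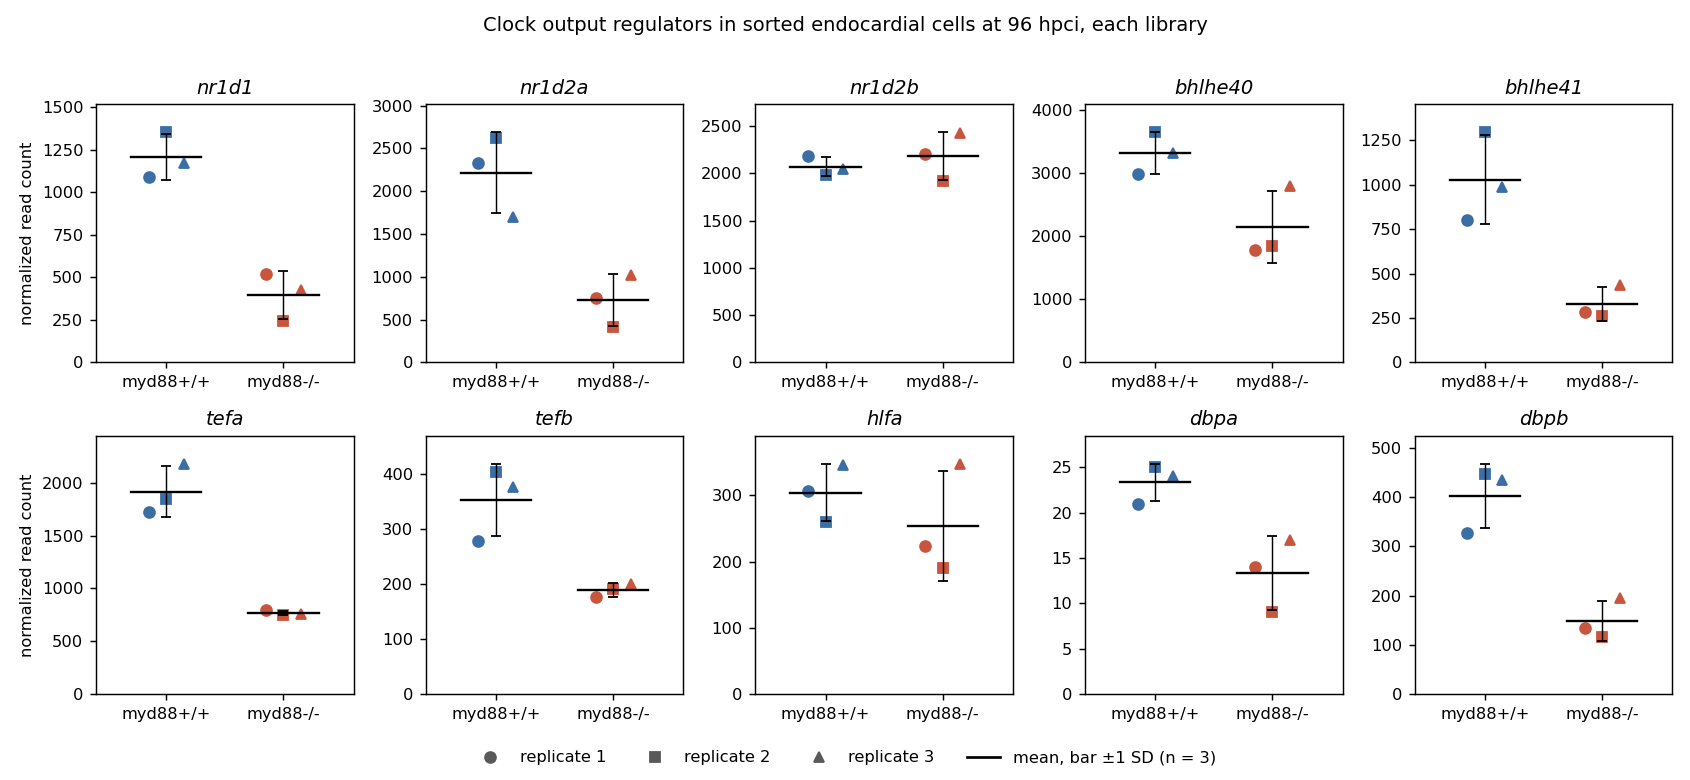
Normalized read counts of the 10 genes in each of the 6 libraries, with the mean and 1 SD (n = 3) per genotype and each axis starting at 0. The genotypes are apart in 8 panels and overlap in those of nr1d2b and hlfa.

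Among the REV-ERB genes, 2 were lower and the third was level. nr1d1 (ENSDARG00000033160, danRer11 chromosome 3, 23488652 to 23496223, plus strand), the REV-ERB alpha gene, had normalized read counts of 1090, 1355 and 1173 in the myd88+/+ pools, against 519, 242 and 424 in the myd88-/- pools. The highest myd88-/- library was thus below the lowest myd88+/+ library by a wide margin. The means were 1206 ± 136 and 395 ± 141 (SD, n = 3), and the mean was 3.05-fold lower in myd88-/- cells. On the log2 scale the difference was -1.67 ± 0.25 (SE).

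nr1d2a (ENSDARG00000003820, chromosome 16, 50089417 to 50111057, plus strand), one of the REV-ERB beta genes, had 2334, 2623 and 1697 in the myd88+/+ pools, against 751, 419 and 1016 in the myd88-/- pools. Its genotypes did not overlap either, although its spread was wider, with an SD of 21.4% of the mean in myd88+/+ and 41.1% in myd88-/- libraries. The mean was 3.04-fold lower and the log2 fold change -1.67 ± 0.30 (SE). With libraries scaled to equal totals or quantile normalized it was -1.61, and nr1d2a was then no longer past the criteria.

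The other REV-ERB beta gene, nr1d2b (ENSDARG00000009594, chromosome 19, 17400263 to 17407115, plus strand), had 2180, 1977 and 2049 in the myd88+/+ pools, against 2201, 1915 and 2424 in the myd88-/- pools. Here the genotypes overlapped, and both the highest and the lowest of the 6 values were in myd88-/- libraries. Its log2 fold change of 0.07 ± 0.13 (SE) was within the spread of the replicates, and the value was -0.01 without myd88-/- replicate 3.

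A comparison inside each library leaves out the scaling of libraries. The ratio of nr1d2a to nr1d2b was 1.07, 1.33 and 0.828 in the myd88+/+ pools, against 0.341, 0.219 and 0.419 in the myd88-/- pools. These ratios are not corrected for transcript length, so only their difference between libraries can be read. The mean ratio was 1.08 ± 0.25 against 0.326 ± 0.101 (SD, n = 3), 3.29-fold lower in myd88-/- cells. By contrast, the ratio of nr1d2a to nr1d1 ran from 1.45 to 2.14 in myd88+/+ and from 1.45 to 2.40 in myd88-/- libraries and overlapped.

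**Figure D2:**
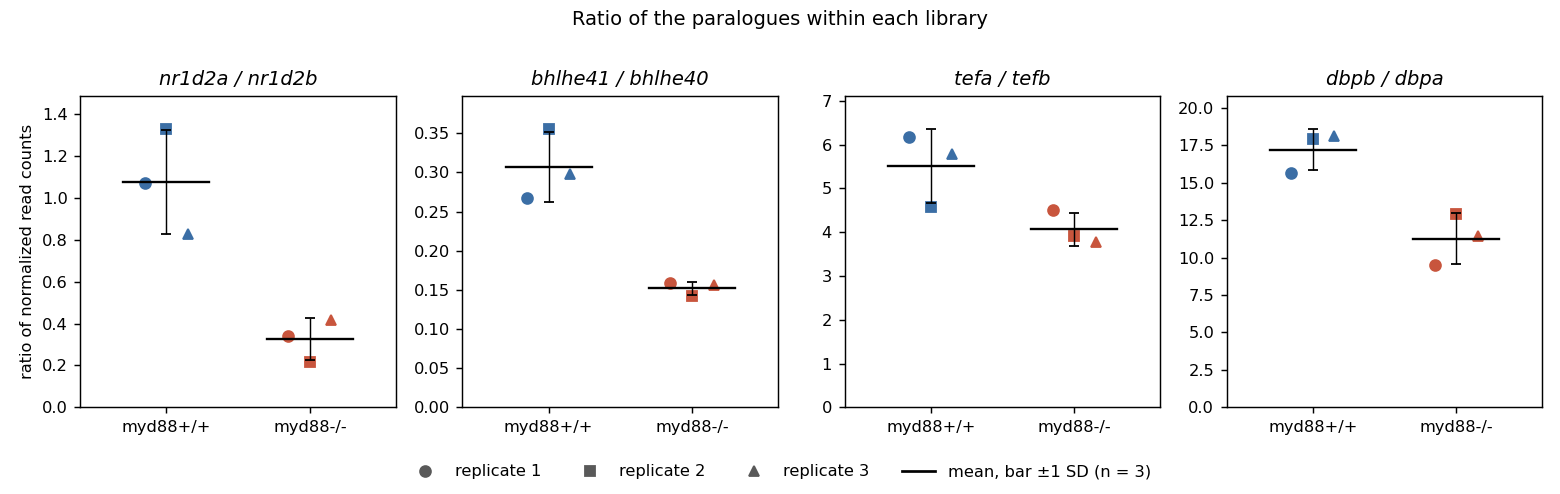
Ratio of normalized read counts of paralogous genes within each library, with the mean and 1 SD (n = 3), axes from 0. In all 4 pairs shown the myd88-/- ratios lie below the myd88+/+ ratios, by the largest factor for nr1d2a over nr1d2b (3.29) and by the smallest for tefa over tefb. Each pair sets a gene past the criteria over a paralogue that was not, so a lower ratio follows largely from that choice. The ratio of nr1d2a to nr1d1, which overlapped, is not drawn.

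The bHLH repressor genes differed from each other in the size of the difference. bhlhe41 (ENSDARG00000041691, chromosome 18, 16125852 to 16130165, plus strand), which encodes DEC2, had normalized read counts of 801, 1297 and 989 in the myd88+/+ pools, against 283, 264 and 437 in the myd88-/- pools. The genotypes were far apart relative to the spread. The means were 1029 ± 250 and 328 ± 94.9 (SD, n = 3), a 3.14-fold lower mean, with a log2 fold change of -1.66 ± 0.23 (SE).

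bhlhe40 (ENSDARG00000004060, chromosome 11, 35759652 to 35763323, minus strand), which encodes DEC1 and is also known in mammals as a gene induced by low oxygen, had 2995, 3653 and 3319 in the myd88+/+ pools, against 1788, 1849 and 2804 in the myd88-/- pools. Replicates 1 and 2 of myd88-/- lay close together, and replicate 3 lay nearer to the myd88+/+ libraries than to them. The log2 fold change of -0.66 ± 0.18 (SE) was not past the criteria. Without myd88-/- replicate 3 it was -0.86, and bhlhe40 was then past them. The ratio of bhlhe41 to bhlhe40 was 0.307 ± 0.044 in myd88+/+ and 0.152 ± 0.008 (SD, n = 3) in myd88-/- libraries, 2.01-fold lower, with no overlap.

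The PAR-bZIP activators were all lower in mean, and 2 of the 5 were past the criteria. tefa (ENSDARG00000039117, chromosome 12, 19144833 to 19153177, minus strand), a thyrotroph embryonic factor gene that is known in zebrafish as a light-induced regulator of D-box genes, had normalized read counts of 1722, 1851 and 2185 in the myd88+/+ pools, against 792, 753 and 759 in the myd88-/- pools. Its myd88-/- values were the closest together of the 10 genes, with an SD of 2.73% of the mean. The myd88-/- mean was 40.0% of the myd88+/+ mean, and the log2 fold change was -1.31 ± 0.13 (SE). Of the 10 genes, only tefa was past the criteria whichever single library was left out, with log2 fold changes of -1.39 to -1.22.

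Its paralogue tefb (ENSDARG00000098103, chromosome 3, 5052822 to 5067585, minus strand) had 279, 405 and 377 in the myd88+/+ pools, against 176, 192 and 201 in the myd88-/- pools. The genotypes did not overlap, and the myd88-/- libraries were again close together. The log2 fold change of -0.88 ± 0.17 (SE) was not past the criteria. The ratio of tefa to tefb was 5.51 ± 0.84 in myd88+/+ and 4.07 ± 0.38 (SD, n = 3) in myd88-/- libraries. The lowest myd88+/+ ratio, 4.57, was next to the highest myd88-/- ratio, 4.50. Reads that mapped to more than 1 place had been removed from the counts, which lowers the values of genes with near-identical stretches. The sequences of tefa and tefb were not compared, so whether this touches them is not known here. The deposited description of tefb repeats that of tefa, which does not bear on their sequences.

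dbpb (ENSDARG00000057652, chromosome 16, 13599693 to 13613475, minus strand), a gene for the D site-binding protein, had 328, 447 and 434 in the myd88+/+ pools, against 133, 116 and 194 in the myd88-/- pools. All myd88-/- values lay below the lowest myd88+/+ value. Its mean was 2.73-fold lower, a log2 fold change of -1.46 ± 0.22 (SE).

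dbpa (ENSDARG00000063014, chromosome 19, 10177115 to 10196370, minus strand) was sparsely counted, with 21, 25 and 24 in the myd88+/+ pools, against 14, 9 and 17 in the myd88-/- pools. The genotypes did not overlap, but read as if they were raw counts these values carry a counting error of 20.0% at 25 and 33.3% at 9, and the log2 fold change of -0.80 ± 0.36 (SE) was not past the criteria. The ratio of dbpb to dbpa was 17.2 ± 1.37 in myd88+/+ and 11.3 ± 1.70 (SD, n = 3) in myd88-/- libraries.

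hlfa (ENSDARG00000074752, chromosome 3, 11585298 to 11624694, minus strand), the hepatic leukemia factor gene, had 306, 260 and 346 in the myd88+/+ pools, against 224, 190 and 348 in the myd88-/- pools. The highest of these 6 values was in a myd88-/- library, replicate 3. Its log2 fold change was -0.30 ± 0.23 (SE), within the spread of the replicates, and it ran from -0.55 without myd88-/- replicate 3 to -0.11 without myd88-/- replicate 2.

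**Figure D3:**
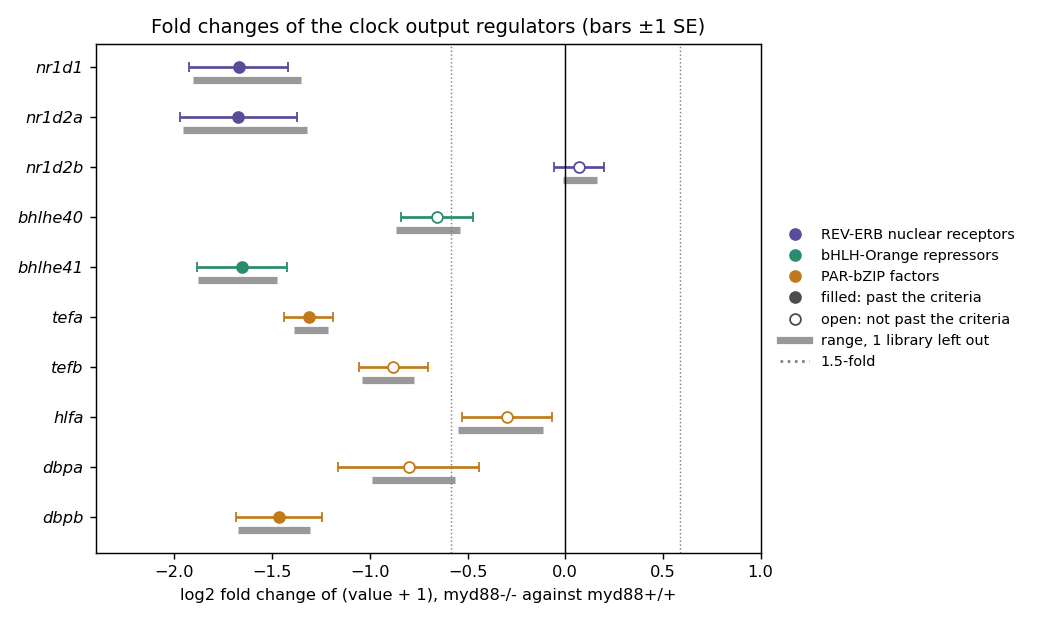
Log2 fold change of (value + 1) in myd88-/- against myd88+/+ cells with 1 SE, for each gene, and in gray its range when 1 library at a time was left out. Filled points, past the criteria, lie between -1.67 and -1.31, and the range of nr1d2b alone reaches across 0.

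The number of genes past the criteria depended on the libraries. It was 6 of 10 without myd88-/- replicate 3, and between 1 and 3 without any one of the other 5 libraries, while the log2 fold changes of the 5 genes lay between -1.96 and -1.22. The count over all genes moved with it, from 115 to 255 without myd88-/- replicate 3 and to between 28 and 59 without any one of the others. By gene, tefa was past the criteria in all 6 runs with 1 library left out and nr1d1 in 3. bhlhe41 and dbpb were past them in 2 runs each, and nr1d2a and bhlhe40 in 1 each. Without the intensity trend in the limma variance model 0 of the 10 and 25 of all genes were past the criteria. An unadjusted p under 0.05 was then held by 8 of the 10 and by 11.8% of all genes tested, and since the 10 were chosen on this contrast nothing is read from their number.

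The order of the libraries inside each genotype was also described, which does not use the contrast that chose the genes. Genes that vary together share an order, so the 10 are not independent and the counts are a description only. Among the myd88-/- libraries, replicate 3 was the highest for 8 of the 10 genes and replicate 2 the lowest for 8, beside 35.6% and 33.3% of all genes tested. Among the myd88+/+ libraries, replicate 2 was the highest for 7 and replicate 1 the lowest for 7, beside 30.0% and 35.3% of all genes tested. The macrophage markers did not follow the same order throughout. Their sum was highest in replicate 3 (2123) of the myd88-/- libraries, but lowest in replicate 1 (896), and it was highest in replicate 2 (3641) and lowest in replicate 3 (1589) of the myd88+/+ libraries. The 3 smooth muscle markers summed to 11419 in myd88-/- replicate 3 and to 2987 and 4737 in the other 2 myd88-/- libraries. Most of that difference was acta2, with 1019, 2109 and 8190 in myd88-/- replicates 1, 2 and 3. The others were less apart, with 473, 1364 and 1258 for tagln and 1495, 1264 and 1971 for myh11a. The part of other cells in the values of the 10 genes was not tested.

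Within the genotypes, bhlhe40, bhlhe41 and dbpb deviated most alike: the Pearson correlations of their deviations from the genotype means over the 6 libraries were 0.93 for bhlhe40 with bhlhe41, 0.92 for bhlhe40 with dbpb and 0.94 for bhlhe41 with dbpb. These genes lie on 3 different chromosomes. Between tefa and nr1d2a the value was -0.31, the lowest of any pair. Over all 45 pairs the median was 0.56, and 42 were positive. The points of a pair share their libraries, so these values are descriptive. Pairs of other genes were not compared, so the values do not show that these genes deviate together more than others.

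**Figure D4:**
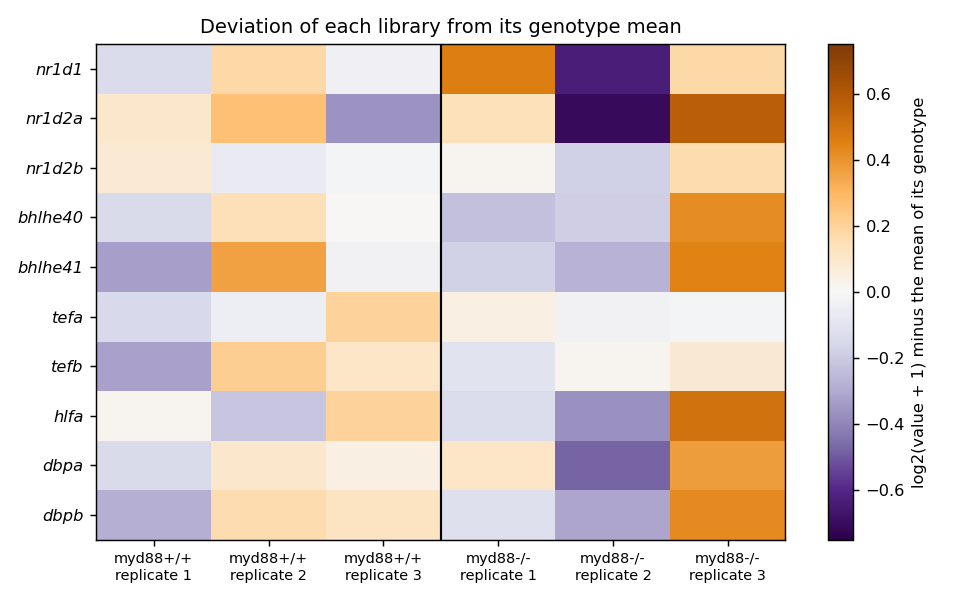
Deviation of log2(value + 1) from the mean of its genotype, for each gene (rows) in each library (columns). In myd88-/- replicate 3 every row but that of tefa is above its mean and in replicate 2 every row but that of tefb is below, whereas tefa deviates by at most 0.04 in any myd88-/- library.

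None of the 10 genes lies on chromosome 24, which carries myd88. They are spread over 6 chromosomes, with tefb, hlfa and nr1d1 on chromosome 3, dbpb and nr1d2a on chromosome 16, and dbpa and nr1d2b on chromosome 19. The nearest 2 are 6.52 Mb apart, tefb and hlfa. On chromosomes 16 and 19 the paralogues are arranged in parallel, a dbp gene and an nr1d2 gene on each. On chromosome 16 both were lower and past the criteria, and on chromosome 19 neither was past them. There dbpa was lower with no overlap, but at values of only 9 to 25. None of the 10 overlaps another listed gene.

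Other genes of the clock were compared next, from a list of 56 names, of which 34 were found and had a mean value above 5. Of these, 10 were lower and 1 was higher by the same criteria, and the median log2 fold change was -0.27. Over all genes tested, 0.562% were lower and 0.14% higher by these criteria, and the median was 0.01. The list was chosen with earlier results of these data known, so its counts, also those by family below, are a description only. In the loop itself the activator genes went opposite ways. npas2 fell by 2.57 ± 0.26 (SE) on the log2 scale, whereas arntl1a rose, with values of 233, 192 and 224 in the myd88+/+ pools, against 418, 432 and 352 in the myd88-/- pools and a log2 fold change of 0.89 ± 0.15. With 1 library left out, npas2 was past the criteria in all 6 runs but arntl1a in only 1, at log2 fold changes of 0.80 to 0.98. Without the intensity trend arntl1a was not past them. None of arntl1b, arntl2, clocka and clockb, which share this role, was past the criteria, and their values overlapped between the genotypes. The highest log2 fold change among them was that of arntl2, 0.47 ± 0.27.

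Of the 4 per genes, which encode repressors of the activators, 3 were past the criteria, all lower in myd88-/- cells. In all 4 the myd88-/- values lay below the myd88+/+ values with no overlap, beside 8.98% of all genes tested. per2, a light-induced gene in zebrafish, had values of 1399, 1457 and 1405 in the myd88+/+ pools, against 289, 295 and 278 in the myd88-/- pools, and its log2 fold change was -2.30 ± 0.11 (SE). In neither genotype did its values spread by more than a few percent. per1a fell to 12.9% of its myd88+/+ mean, the log2 fold change of per3 was -1.29 ± 0.19, and per1b, at -0.60 ± 0.15, was not past the criteria. With 1 library left out, per3 was past them in only 1 of 6 runs.

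Among 7 cryptochrome genes 4 were lower and past the criteria. Their log2 fold changes were -3.27 ± 0.22 for cry5, -1.34 ± 0.15 for cry1b, -1.18 ± 0.15 for cry2 and -1.13 ± 0.13 (SE) for cry1a. With 1 library left out, cry5 and cry1b were past them in all 6 runs, cry1a in 5 and cry2 in 3. cry3b was also lower with no overlap, at 57.1% of its myd88+/+ mean, but was not past the criteria. The values of cry4 and cry3a overlapped, at log2 fold changes of -0.26 ± 0.15 and 0.03 ± 0.15. Thus 5 of the 7 were lower with no overlap, beside 8.98% of all genes tested. Cryptochromes of the cry1 and cry2 kind repress the activators, and cry5 belongs to the photolyases that repair ultraviolet damage. cry5 overlaps foxred1, which lies on the opposite strand, and reads assigned to more than 1 gene were left out of the counts, so the level of cry5 is uncertain. The repressor gene ciarta fell by 1.19 ± 0.12. Its paralogue ciartb, at -0.54 ± 0.18 with no overlap, was not past the criteria. None of the 5 ROR receptor genes and none of 7 kinase and ubiquitin ligase genes acting on Per and Cry proteins was past the criteria. An unadjusted limma p under 0.05 was held by 2 and 2 of them, beside 13.2% of all genes tested. Of these, rorab and csnk1db were lower in myd88-/- cells, and rorcb and fbxl3a were higher.

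The nfil3 family encodes bZIP repressors that compete with PAR-bZIP factors for D-boxes. Its members did not move as one. nfil3-6 had values of 331, 266 and 235 in the myd88+/+ pools, against 91, 69 and 143 in the myd88-/- pools and fell to 36.4% of its myd88+/+ mean. It was past the criteria in only 1 of 6 runs with 1 library left out. nfil3-5 had 120, 148 and 260 in the myd88+/+ pools, against 407, 559 and 263 in the myd88-/- pools. These did not overlap, but the lowest myd88-/- value, 263, was next to the highest myd88+/+ value, 260, and its log2 fold change of 1.23 ± 0.33 was not past the criteria. For nfil3 the change was 0.42 ± 0.19 with overlap.

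**Figure D5:**
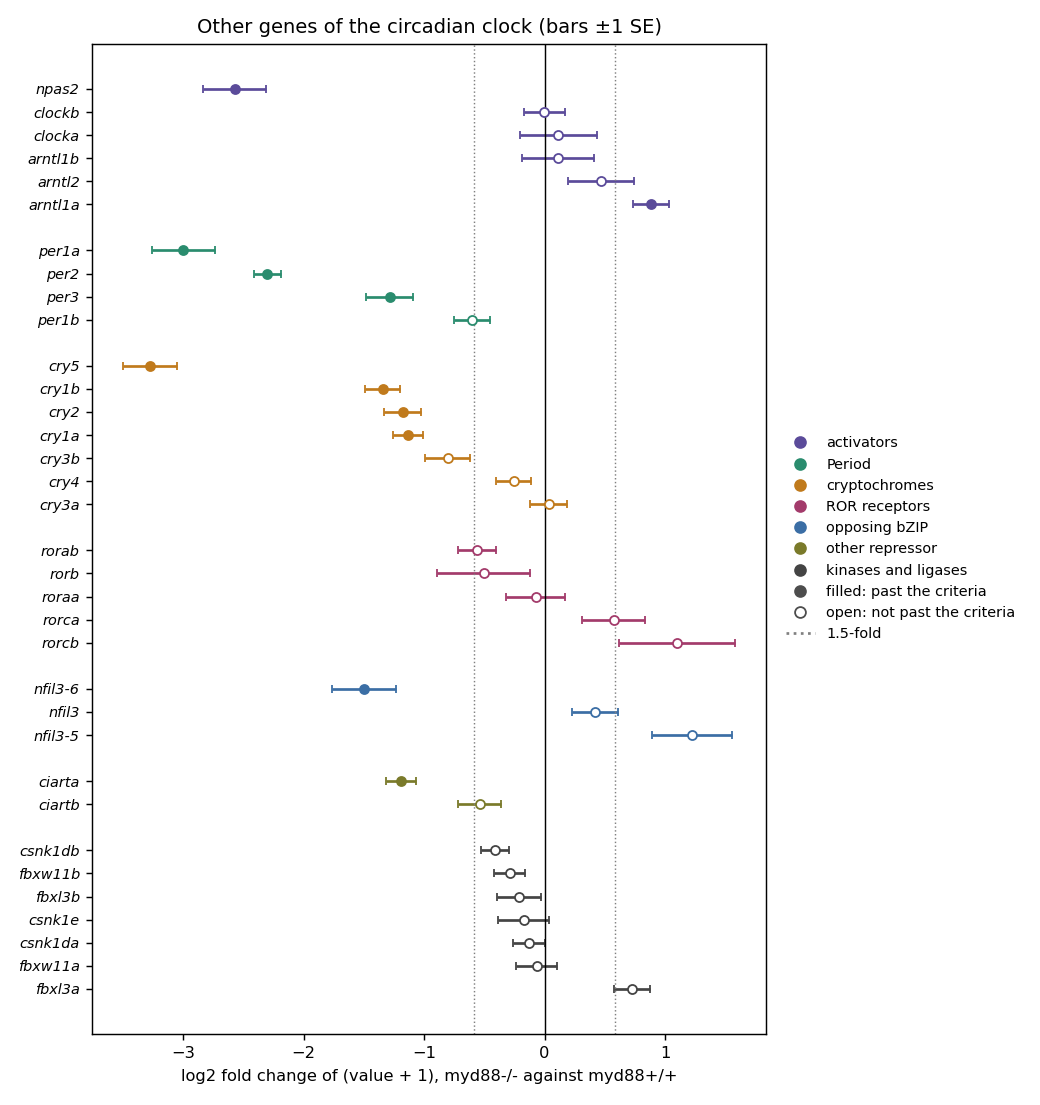
Log2 fold change of (value + 1) with 1 SE in myd88-/- against myd88+/+ cells for 34 other clock genes, grouped by role, filled where past the criteria. The 10 filled points on the left run from cry5 (-3.27) to cry1a (-1.13), and arntl1a (0.89) is the filled point on the right.

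Genes with a like pattern were sought for the 5 genes past the criteria, as the 3 with the highest Pearson correlation of log2(value + 1) over the 6 libraries among 10616 genes with a mean value of at least 50. These correlations over 6 libraries in 2 genotypes only rank the genes. For nr1d1 they were hic1 (0.997), csnk1db (0.995) and susd6 (0.992), and for nr1d2a gsto2 (0.997), ivd (0.996) and mnta (0.992). For bhlhe41 they were mylipb (0.992), sec14l1 (0.991) and ciartb (0.989). The span of sec14l1 overlaps 14 other listed genes. For tefa they were flii (0.999), ddb2 (0.995), which encodes a sensor of ultraviolet damage in DNA and overlaps kbtbd4, and lonrf1 (0.994), and for dbpb hif1al (0.996), txnipa (0.995) and gbp (0.994). Of these 15 genes, mylipb, ddb2, hif1al and txnipa were past the criteria, as were 0.702% of all genes tested. The 15 were picked by correlation with genes past the criteria, so their number is a description only. A high correlation does not mean a large change: that of ivd was -0.15 ± 0.11 (SE) on the log2 scale. mylipb went from 576, 934 and 810 to 165, 162 and 234, or -2.03 ± 0.22 (SE) on the log2 scale, and ddb2 from 467, 592 and 639 to 128, 103 and 102, with -2.34 ± 0.17. In both the genotypes were far apart, which follows largely from how these genes were picked.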

How the data were processed

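RNA of EGFP+ cells from 3 myd88+/+ and 3 myd88-/- pools was sequenced after selection of polyadenylated RNA. Per the labels and the study's methods, the authors trimmed reads with Trimmomatic 0.39, aligned them with STAR 2.7.10a to danRer11, removed duplicate, multimapping, ribosomal and mitochondrial reads with Picard 3.0.0, counted exons with featureCounts 2.0.4, leaving out reads on more than 1 gene, and normalized with DESeq2 1.36.0. Whether counting used strand is not given in the sources used here. The deposited values are treated as a score, since the authors scaled the counts by library size factors and rounded the result. For example, no gene holds the value 20 in myd88+/+ replicate 1. Counts could therefore not be tested as such. Among low values such gaps occurred in the myd88+/+ columns only. Sums per library, 11136966 to 11847536, are of scaled values and do not give the depth of sequencing, which is unknown here.

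All 6 columns entered limma 3.58.1 in R 4.3.3 (lmFit and trended eBayes, with genotype and no covariate) on log2(value + 1). P-values were adjusted by Benjamini-Hochberg over 16383 genes with a mean above 5. Fold changes on this scale understate those of low genes. The fit was tested on simulated data. Replicates are separate pools, and a p-value sets the difference between the genotypes against the spread between pools. That spread is estimated partly from other genes of like value, through the intensity trend. The 10 genes and all lists were chosen with earlier results of these data known. Named genes were the 10, clock genes past the criteria, and the 3 genes most correlated with each of the 10 that was past them. Also named were myd88 and cdh5, as checks. Any other gene was named after its values were seen. Symbols were those deposited: all 10 identifiers were in a table of gene names, 6 under the same spelling, and all 10 symbols lay on the same chromosome in RefSeq. No transcript lengths or promoter sequences were used, so levels were not compared between genes and the planned motif search was not run. Alternatives were other pseudocounts, filters and scalings, limma without trend, a replicate block and leaving out each library. Figures were drawn with matplotlib 3.10.9.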

Additional observations from a re-analysis of the deposited data

How the results depend on the processing

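The 5 genes past the criteria stayed the same 5 with a pseudocount of 0.5 or 5, with no filter on low values and with a mean of at least 50, a filter that left dbpa out. Without the intensity trend 0 of the 10 genes, 4 of the 34 other clock genes and 25 of all genes were past the criteria, against 5, 11 and 115. With 1 library left out the counts ran from 1 to 6 for the 10 genes, from 6 to 12 for the other clock genes, and from 28 to 255 for all genes. The lowest count of all genes came without myd88+/+ replicate 2 and the highest without myd88-/- replicate 3. Deviations of same-numbered libraries correlated at -0.12, 0.13 and -0.14, and those of differently numbered libraries at -0.18 to 0.25. No pairing by replicate number was seen, and whether libraries share a batch was not tested. With a replicate block 1 of the 10 genes (tefa), 8 of the other clock genes and 45 of all genes were past the criteria. With 1 library left out the log2 fold change of nr1d2b ran from -0.00976 to 0.16, and its direction turned without myd88-/- replicate 3. No other direction among the 10 genes turned under any alternative run. The values of dbpa, at 9 to 25, limit what can be said of it.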

Other observations

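Relatives of the 10 genes were near the floor of detection. hlfb, the paralogue of hlfa, had values of 5, 3 and 5 in the myd88+/+ pools, against 4, 6 and 5 in the myd88-/- pools. nr1d4b, of a REV-ERB branch found in fish, had 2, 2 and 7 in the myd88+/+ pools, against 0, 2 and 0 in the myd88-/- pools. Neither had a mean above 5, so neither was tested, and nothing is read from their values.

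fbxl3a, which encodes a ubiquitin ligase subunit acting on cryptochromes, went against most of the clock list, with 407, 382 and 317 in the myd88+/+ pools, against 555, 580 and 696 in the myd88-/- pools. The genotypes did not overlap, and its log2 fold change of 0.73 ± 0.15 (SE) was not past the criteria. It was named after its values were seen.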
